A study of Mus musculus with 9 samples.

Results

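Expression of 6 members of the complement system was followed by RNA sequencing in the prelimbic cortex of mice: the 3 C1q chains C1qa, C1qb and C1qc, the components C3 and C4b, and the C1 inhibitor Serping1. They are the rows of the deposited table with these symbols, 6 of 55335 symbols, and 6 of 6 had enough counts to be among the 21765 genes tested. The prelimbic cortex belongs to the medial prefrontal cortex and is known for shaping pain and mood. The 9 mice formed 3 groups of 3, with tissue taken on day 14 after surgery: sham surgery followed by saline (sham mice), spared nerve injury followed by saline (injured saline mice), and spared nerve injury followed by R-HNK, 10 mg/kg (R-HNK mice). This injury cuts some branches of the sciatic nerve and is used as a model of neuropathic pain. R-HNK is hydroxynorketamine, a metabolite of ketamine, in its R form. No genetic change is labelled in any group. Strain, sex and age are not given in the sources used here, and neither are the times and number of the doses.

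The complement system is a cascade of proteins that tags surfaces for removal. In the classical pathway C1q, built from an A, a B and a C chain, binds a target and activates the proteases C1r and C1s, which cut C4 and C2, and the resulting enzyme cuts C3. Serping1 encodes the C1 inhibitor, which blocks C1r and C1s. In the brain, microglia are the main source of C1q, C4 RNA is found in astrocytes and oligodendrocytes, and C1q, C4 and C3 are known for tagging synapses that microglia remove during development. Levels below are CPM, each gene's count relative to its library's total in the usual CPM unit, after scaling between libraries by edgeR. Differences between groups are log2 fold changes with a standard error (SE) from edgeR's quasi-likelihood test, and a gene passed when its Benjamini-Hochberg adjusted p over all genes tested was under 0.05. Values listed by library are in the order of replicates 1, 2 and 3.

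The libraries held 53624337 to 73586375 counts each. They were not alike in tissue content. The summed level of 12 markers of striatal medium spiny neurons, cells outside the cortex, was 297.5, 1597.9 and 1496.3 CPM in the sham mice. It was 256.1 to 297.6 CPM in the injured saline mice and 708.6, 284.5 and 1004.3 CPM in the R-HNK mice. Both sham replicates 2 and 3 stood apart from the other 5 libraries, as did replicates 1 and 3 of the R-HNK mice, and the C4b and Serping1 results are also given without these 4. Markers of cortical excitatory neurons were high in all 9 libraries, with Camk2a at 2801.9 to 3367.3 CPM, though the list as a whole was not level between groups, as given beside the other markers. In bulk tissue, fewer cells of a type and less RNA per cell cannot be told apart.

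Per length, the C1q chains were the most abundant of the set and C3 the least. Divided by the length of the longest coding transcript in GENCODE M21, the mean over the 9 libraries was 35.3 ± 3.7 CPM per kb (SD, n = 9) for C1qa, 31.5 ± 3.09 for C1qb and 27.6 ± 4.06 for C1qc. The ranges over libraries overlapped for these 3 neighbours, at 30.6 to 40.0, 27.6 to 35.0 and 20.5 to 35.2 CPM per kb. The place of C1qc depends on the length used: over its merged exons, 1931 bases, it averaged 17.2 CPM per kb, and its highest library lay below every C1qa and C1qb value, which stayed as they were. C4b followed at 2.47 ± 1.23 CPM per kb, Serping1 at 1.0 ± 0.335 and C3 at 0.0547 ± 0.0371. The range of C4b, 0.954 to 4.32, overlapped that of Serping1, 0.641 to 1.57, while C3 stayed at or under 0.117 CPM per kb in every library. Relative to its mean, C4b varied more between libraries than the C1q chains, with a coefficient of variation over the 9 libraries of 49.9% against 10.5%, 9.8% and 14.7% for C1qa, C1qb and C1qc.

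**Figure D1:**
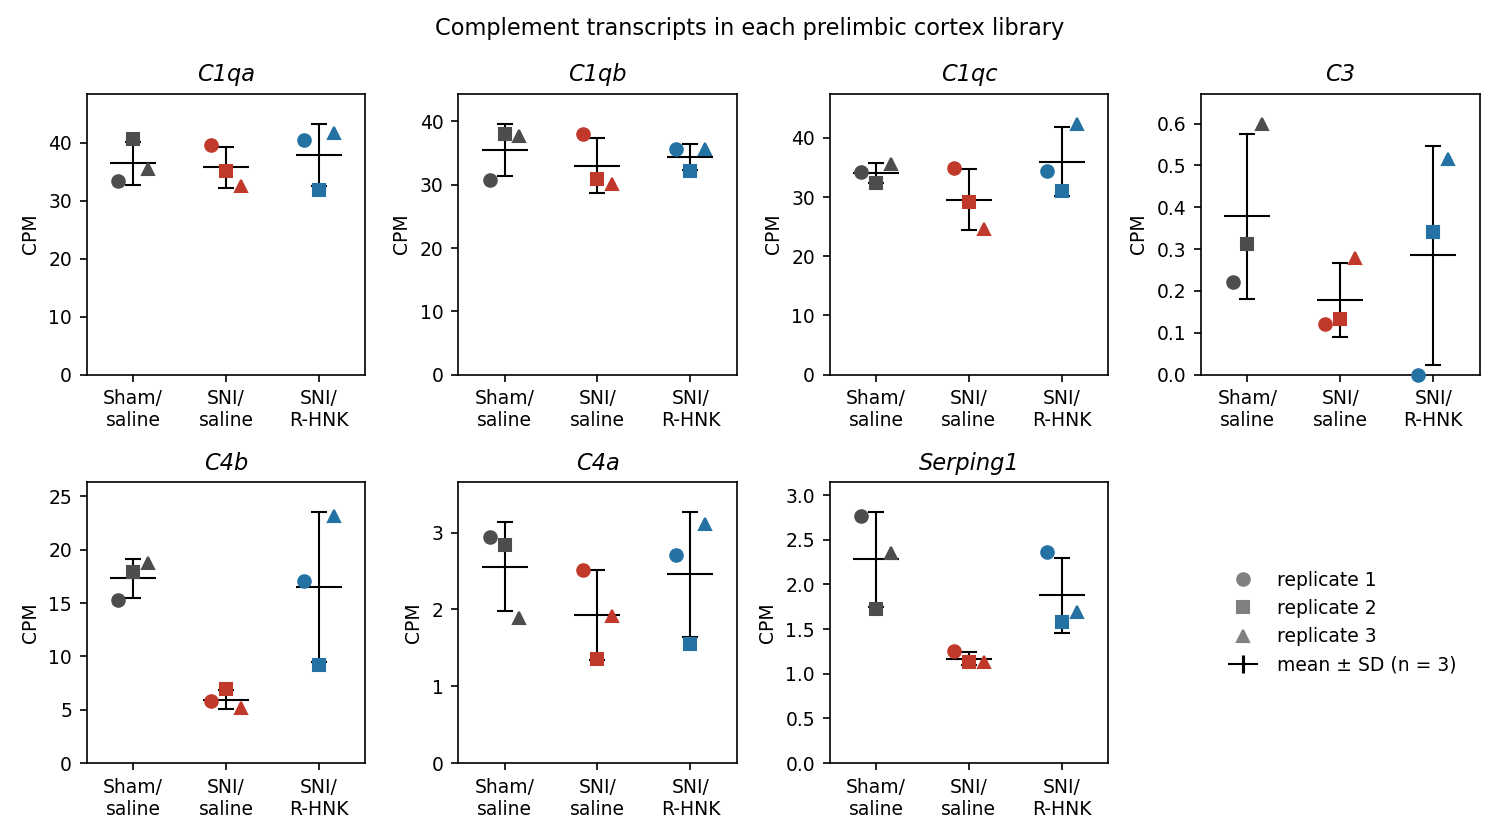
Level in CPM (vertical axes, each from 0) of the 6 complement genes and C4a, the close copy of C4b, in each of the 9 libraries, by group; points are mice, shapes are replicate numbers and bars are the mean ± SD (n = 3). The C4b points of the injured saline mice, 5.13 to 6.91 CPM, sit below all points of the sham mice, 15.3 to 18.8 CPM, while the C1q points of the 3 groups overlap.

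The 3 C1q genes lie side by side on the minus strand of chromosome 4 (GRCm38, GENCODE M21), with C1qb at chr4:136880129-136886187, C1qc at chr4:136889804-136893065 and C1qa at chr4:136895917-136898803. Their promoters are shown because the chains are needed in equal number and the proportions of their RNAs varied little between libraries here. RefSeq promoter windows on GRCm38.p6, from 250 bases before to 50 after a gene's RefSeq start, were matched for 3 of the 6 members. These were C1qb, C1qc and C3. The RefSeq start can differ from the GENCODE one, and most of the C1qc window lies inside the GENCODE gene given above. The windows of C1qb (chr4:136886151-136886450) and C1qc (chr4:136892865-136893164) follow, both read on the minus strand, with capitals marking AGGAAG on either strand. This motif holds the GGAA core bound by Ets-family factors such as PU.1, a transcription factor of microglia.
C1qb: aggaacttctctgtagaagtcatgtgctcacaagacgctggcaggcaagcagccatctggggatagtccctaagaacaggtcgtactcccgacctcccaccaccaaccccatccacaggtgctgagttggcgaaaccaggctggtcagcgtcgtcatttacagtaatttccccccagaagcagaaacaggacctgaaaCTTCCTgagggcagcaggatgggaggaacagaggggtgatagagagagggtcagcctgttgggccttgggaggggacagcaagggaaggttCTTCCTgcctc
C1qc: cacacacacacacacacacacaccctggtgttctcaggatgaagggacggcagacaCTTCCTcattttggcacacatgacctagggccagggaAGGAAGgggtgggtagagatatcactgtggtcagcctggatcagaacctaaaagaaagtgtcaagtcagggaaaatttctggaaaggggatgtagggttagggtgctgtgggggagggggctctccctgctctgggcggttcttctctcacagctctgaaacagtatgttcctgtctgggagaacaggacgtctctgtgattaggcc
Each of these windows held 2 matches and that of C3 held 0, with no overlap between matches. The motif is common, since 35.4% of 32851 promoters of the same length held it on 1 or both strands, and a match does not show binding.

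None of the 3 C1q genes passed in any comparison, and the intervals leave room for only modest changes. C1qa measured 33.4, 40.6 and 35.4 CPM in the sham mice, 39.6, 35.1 and 32.5 in the injured saline mice and 40.4, 31.8 and 41.6 in the R-HNK mice. C1qb measured 30.7, 38.1 and 37.7 CPM, then 38.1, 30.9 and 30.1, then 35.6, 32.1 and 35.6 in the same groups. C1qc measured 34.3, 32.3 and 35.6 CPM, then 34.9, 29.1 and 24.6, then 34.4, 31.1 and 42.4. The groups overlapped for each chain in each comparison. Between injured saline and sham mice the log2 fold change was -0.03 ± 0.11 (95% interval -0.28 to 0.22) for C1qa, -0.10 ± 0.11 (-0.34 to 0.13) for C1qb and -0.21 ± 0.13 (-0.49 to 0.08) for C1qc, with adjusted p of 0.933, 0.681 and 0.47. Between R-HNK and injured saline mice it was 0.09 ± 0.11 (-0.16 to 0.33), 0.06 ± 0.11 (-0.18 to 0.30) and 0.28 ± 0.13 (0.00 to 0.57), with adjusted p of 0.885, 0.924 and 0.672. As shares of the summed C1q level per length, C1qa took 34.7% to 39.4% over the 9 libraries, C1qb 30.3% to 35.2% and C1qc 25.8% to 32.6%. With merged exon lengths the shares were 39.1% to 43.7%, 34.6% to 39.7% and 17.8% to 23.2%.

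C4b had the largest difference of the 6 genes between injured saline and sham mice. C4b encodes complement C4, whose cleavage product binds covalently to the tagged surface, and lies at chr17:34728380-34743882 on the minus strand. Its near copy C4a lies at chr17:34809092-34823464 on the same strand. The C4b and C4a transcripts, 5379 and 5371 bases long, were identical in 95.9% of aligned positions, with 188 mismatches. A read from a stretch where they are identical cannot be assigned to 1 of them from its sequence. Of all windows of 150 bases in the C4b transcript, 8.26% occurred whole in C4a, against 16.5% of windows of 100 bases and 35.2% of windows of 50 bases. The 60 bases with the most differences, in exon 21 (chr17:34735430-34735489 for C4b), and 60 bases of exon 8 (chr17:34741192-34741251) inside the longest shared run of 433 bases show both cases, from the GENCODE M21 transcripts on GRCm38 read 5′ to 3′ along the transcript. Capitals mark bases that differ between the copies, 13 in exon 21 and 0 in exon 8.
C4b exon 21: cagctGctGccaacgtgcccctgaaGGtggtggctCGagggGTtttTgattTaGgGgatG
C4a exon 21: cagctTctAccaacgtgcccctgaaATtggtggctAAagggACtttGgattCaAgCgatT
C4b and C4a exon 8: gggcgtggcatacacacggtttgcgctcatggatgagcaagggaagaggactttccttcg

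C4b measured 15.3, 17.9 and 18.8 CPM in the sham mice, 5.79, 6.91 and 5.13 in the injured saline mice, and 17.1, 9.16 and 23.2 in the R-HNK mice. The 3 injured saline libraries were the lowest of the 9, and they overlapped neither other group. The group means were 17.4 ± 1.8 CPM (SD, n = 3), 5.95 ± 0.903 and 16.5 ± 7.06. C4b was lower in injured saline than in sham mice by a log2 fold change of -1.55 ± 0.29 (95% interval -2.21 to -0.89, edgeR adjusted p = 0.048), just inside the threshold. It was the 1 of 6 genes that passed, where 1.07% of all genes tested passed (233 of 21765) and 0.556% passed as lower. Serping1 was the other member whose injured saline libraries all lay below the sham libraries, so that 2 of 6 did not overlap in that direction against 10.9% of all genes. The median log2 fold change of the 6 genes was -0.58, and that of all genes was -0.02. The call of C4b rested on a small margin. It was lost when sham replicate 2 (adjusted p = 0.168), sham replicate 3 (0.174), injured saline replicate 1 (0.137), 2 (0.153) or 3 (0.173), or R-HNK replicate 1 (0.0853) was left out, and held without sham replicate 1 (0.0356), R-HNK replicate 2 (0.000372) or R-HNK replicate 3 (0.0091).

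R-HNK mice had more C4b RNA than injured saline mice in 3 of 3 libraries, without passing the threshold. The log2 fold change was 1.47 ± 0.29 (95% interval 0.82 to 2.13, unadjusted p = 0.000662, edgeR adjusted p = 0.238). None of the 6 genes passed in this comparison with edgeR, where 0.119% of all genes did (0.0368% as higher and 0.0827% as lower), while DESeq2 called 1 and limma-voom 0. There were 2 of 6 members with an unadjusted p under 0.05, C4b and Serping1, and both were higher with no overlap between groups, against 7.15% of all genes. No member was lower without overlap, against 6.59% of all genes. The 3 R-HNK libraries were spread widely for C4b, with a coefficient of variation of 42.8% against 10.4% in sham and 15.2% in injured saline mice. Without R-HNK replicate 2, the lowest at 9.16 CPM, the log2 fold change was 1.76 (adjusted p = 0.0022). Without the 4 libraries raised in striatal markers, R-HNK replicate 2 was the only R-HNK library left and the value was 0.62 (adjusted p = 0.839), while injured saline against sham mice gave -1.36 (adjusted p = 0.00826) with 1 sham library. Between R-HNK and sham mice C4b gave -0.07 ± 0.28 (-0.71 to 0.56, adjusted p = 1), an interval that does not exclude a difference of either sign. In that comparison 0 of 6 members passed with edgeR, DESeq2 or limma-voom, and 0.00459% of all genes passed. There 0 members had an unadjusted p under 0.05, against 3.53% of all genes. All 6 members overlapped between these groups, where 4.43% of all genes were higher and 4.42% lower without overlap.

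**Figure D2:**
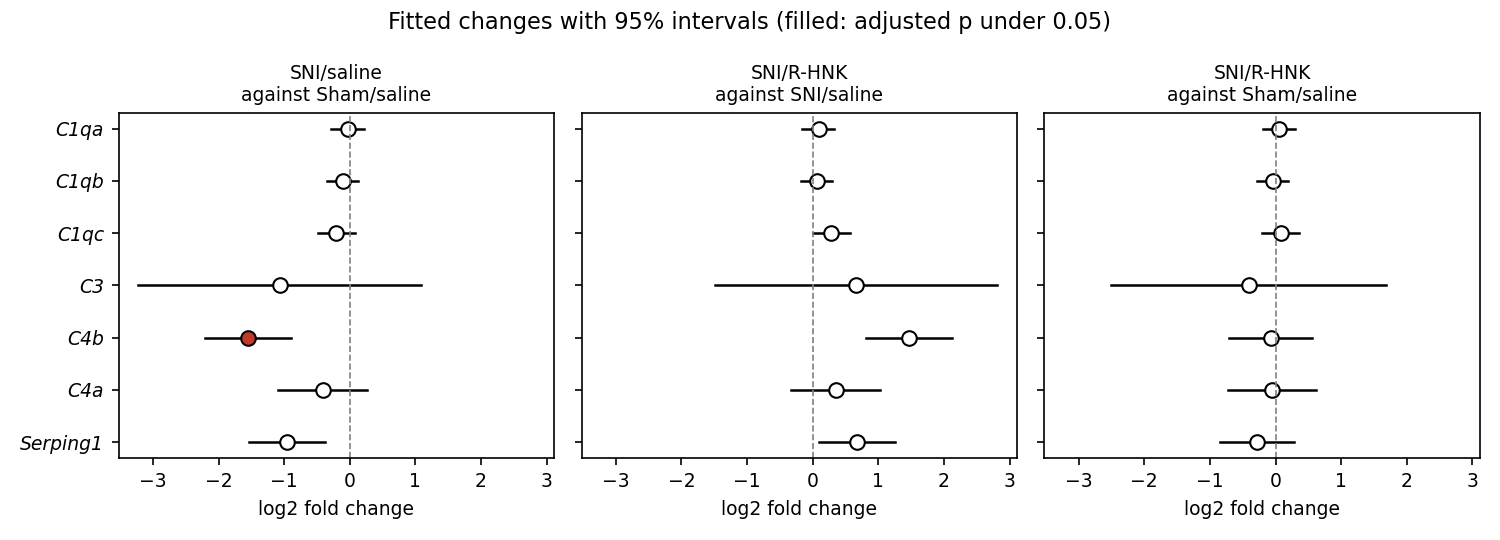
Log2 fold change (horizontal axes) of the 6 complement genes and C4a in the 3 comparisons, with 95% intervals from edgeR as bars and filled points where the adjusted p was under 0.05. C4b in injured saline against sham mice, at -1.55, is the only value that passed, and the C1q intervals are narrower than those of the other genes.

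C4a, counted separately, moved less. It measured 2.94, 2.84 and 1.89 CPM in the sham mice, 2.52, 1.35 and 1.91 in the injured saline mice, and 2.71, 1.55 and 3.11 in the R-HNK mice, with groups that overlapped. Its log2 fold change was -0.41 ± 0.31 (-1.09 to 0.27, adjusted p = 0.559) between injured saline and sham mice and 0.35 ± 0.31 (adjusted p = 0.822) between R-HNK and injured saline mice. C4b made up 83.9%, 86.3% and 90.9% of the summed CPM of both genes in the sham mice, 69.7%, 83.7% and 72.8% in the injured saline mice, and 86.3%, 85.5% and 88.2% in the R-HNK mice. Summed, which takes away the split of reads between the copies but not the loss of reads left uncounted, the pair fell short of the threshold between injured saline and sham mice, at -1.34 ± 0.27 (adjusted p = 0.0559). The sum was 18.3, 20.7 and 20.7 CPM in sham mice and 8.31, 8.26 and 7.04 CPM in injured saline mice, so those groups did not overlap.

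**Figure D3:**
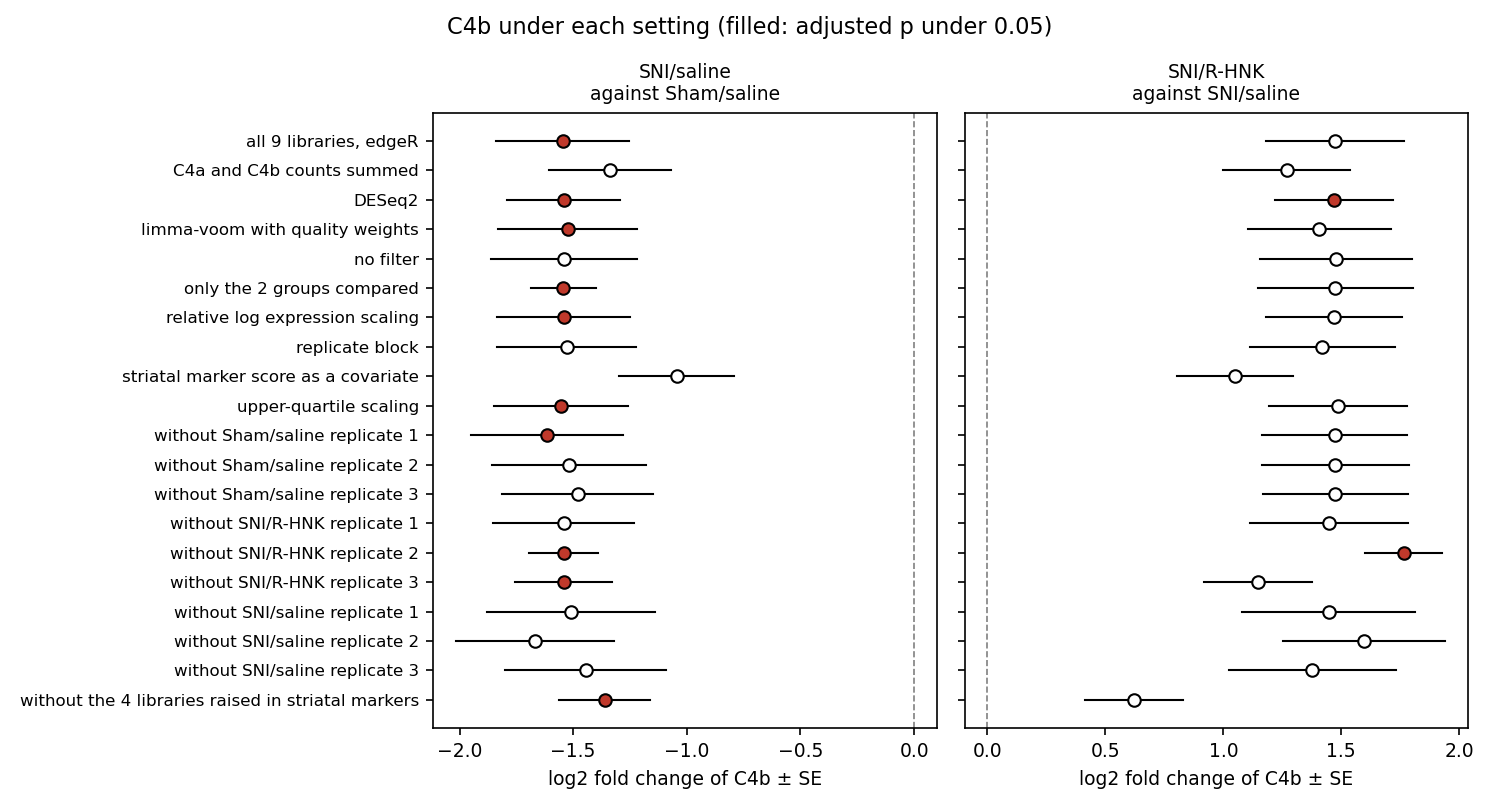
Log2 fold change of C4b ± SE (horizontal axes) under the main analysis and each alternative, named at the left, with filled points where the adjusted p was under 0.05. Injured saline against sham mice (left) was negative in 20 of 20 settings, from -1.67 to -1.05, and passed in 10, and R-HNK against injured saline mice (right) was positive in 20 of 20, from 0.62 to 1.76, and passed in 2.

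Serping1, at chr2:84765387-84775444 on the minus strand, was the other member with separated groups. It measured 2.77, 1.72 and 2.35 CPM in the sham mice, 1.25, 1.13 and 1.13 in the injured saline mice, and 2.36, 1.58 and 1.69 in the R-HNK mice. The injured saline libraries were the 3 lowest and lay close together, and sham and R-HNK libraries overlapped. The log2 fold change between injured saline and sham mice was -0.96 ± 0.27 (-1.53 to -0.38), which did not pass (unadjusted p = 0.00331, edgeR adjusted p = 0.103). With R-HNK the value against injured saline mice was 0.68 ± 0.27 (0.10 to 1.25, adjusted p = 0.613), and against sham mice -0.28 ± 0.26 (-0.84 to 0.28, adjusted p = 1). Without the 4 libraries raised in striatal markers these values were -1.23 (adjusted p = 0.305), 0.42 (adjusted p = 1) and -0.81 (adjusted p = 1), with 1 sham and 1 R-HNK library left. These values came from 68 to 175 counts per library.

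C3, the component on which the pathways of complement activation converge, lies at chr17:57203970-57228136 on the minus strand and was close to the limit of detection. It had 13, 18 and 33 counts in the sham mice, 7, 8 and 18 in the injured saline mice, and was listed at 0 in R-HNK replicate 1 with 22 and 33 counts in the other 2 R-HNK mice. In CPM these were 0.222, 0.313 and 0.6, then 0.122, 0.133 and 0.28, then 0, 0.34 and 0.515. The groups overlapped. The log2 fold change between injured saline and sham mice was -1.07 ± 0.99 with an interval of -3.22 to 1.08 (adjusted p = 0.64), so a difference in C3 was not detectable at this depth. The same holds for R-HNK against injured saline mice, at 0.66 ± 0.99 (-1.49 to 2.81, adjusted p = 0.906).

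The wider complement list of 59 genes, the 6 members included, had 46 genes with enough counts to test and 6 listed at 0 in all 9 libraries. C4b was the only one of the 46 to pass between injured saline and sham mice. Of these, 9 had an unadjusted p under 0.05 (where 16.6% of all genes did) and all of these were lower, among them C4b, Serping1, C2, Colec12, Hc, Itgam, Csmd3 and Sez6. Without overlap between groups, 8 of the 46 were lower and 4 higher, against 10.9% of all genes in each direction. The list's median was -0.11, and without the 6 members it was -0.01, against -0.02 for all genes. Between R-HNK and injured saline mice 0 of 46 passed with edgeR, while DESeq2 called 1 and limma-voom 0. There 6 had an unadjusted p under 0.05 (7.47% of all genes), 5 higher and 1 lower. The median was 0.09, and without the 6 members it was 0.04, against 0.007 for all genes. Between R-HNK and sham mice 0 passed with edgeR, DESeq2 or limma-voom. There 3 had an unadjusted p under 0.05 (3.53% of all genes), 2 lower and 1 higher, and the median was -0.01 with or without the members.

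Among the classical pathway genes beside C4b, the protease C2, which joins C4 in the enzyme that cuts C3, averaged 1.09 ± 0.437 CPM (SD, n = 3) in sham mice and 0.311 ± 0.228 in injured saline mice, and its difference of -1.81 ± 0.56 on the log2 scale did not pass (adjusted p = 0.136). C1ra and C1s1, proteases of the C1 complex, gave values of the other sign, 0.88 ± 0.45 and 0.38 ± 0.34 (adjusted p = 0.357 and 0.63). The named classical pathway genes thus had values of both signs. In the lectin pathway Colec12, a scavenger receptor with a C-type lectin domain, averaged 4.75 ± 0.535 CPM in sham, 2.95 ± 0.848 in injured saline and 4.74 ± 0.435 in R-HNK mice (-0.69 ± 0.22, adjusted p = 0.14, and 0.68 ± 0.22, adjusted p = 0.485). Masp1, a lectin pathway protease, gave 0.15 ± 0.10 (adjusted p = 0.514). In the alternative pathway properdin, Cfp, gave 0.23 ± 0.12 (adjusted p = 0.389) and Cfb, the protease precursor of that pathway, -0.38 (adjusted p = 0.736).

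Of the terminal pathway, Hc, which encodes C5, was listed at 0 in all 3 injured saline libraries. It had 0, 15 and 12 counts in the sham and 0, 9 and 14 in the R-HNK mice, so 1 library of each of these groups was also at 0. The groups overlapped and Hc did not pass (adjusted p = 0.214). The list medians, -0.11 and 0.09, were the same with the injured saline group set to 3 counts of Hc in all. C7 and C8g, parts of the membrane pore, gave 0.02 and -0.12. Among receptors, Itgam, a chain of complement receptor 3 on microglia, averaged 23.7 ± 4.27 CPM in sham mice and, after injury and saline, 19.0 ± 0.989 CPM (-0.32 ± 0.14, edgeR adjusted p = 0.284). These groups overlapped, with 18.9 CPM in sham replicate 1 and 17.9 to 19.8 CPM in injured saline mice. Sham replicates 2 and 3, the sham libraries raised in striatal markers, were at 26.7 and 25.7 CPM. The partner chain of Itgam, Itgb2, gave 0.02. Among regulators, Clu, which encodes clusterin, averaged 598.8 ± 56.9 and 542.0 ± 25.9 CPM (-0.14 ± 0.08, adjusted p = 0.39). Sez6, a neuronal membrane protein with complement control domains, averaged 353.0 ± 63.1 and 273.8 ± 9.5 CPM (-0.37 ± 0.13, edgeR adjusted p = 0.182). It measured 284.1, 366.9 and 408.0 CPM in sham, 279.3, 262.8 and 279.3 in injured saline and 363.5, 279.1 and 347.4 in R-HNK mice. Its 4 highest libraries were thus the 4 raised in striatal markers, and a link was not tested. The relatives of Sez6, Sez6l2 and Sez6l, gave 0.07 and 0.05.

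**Figure D4:**
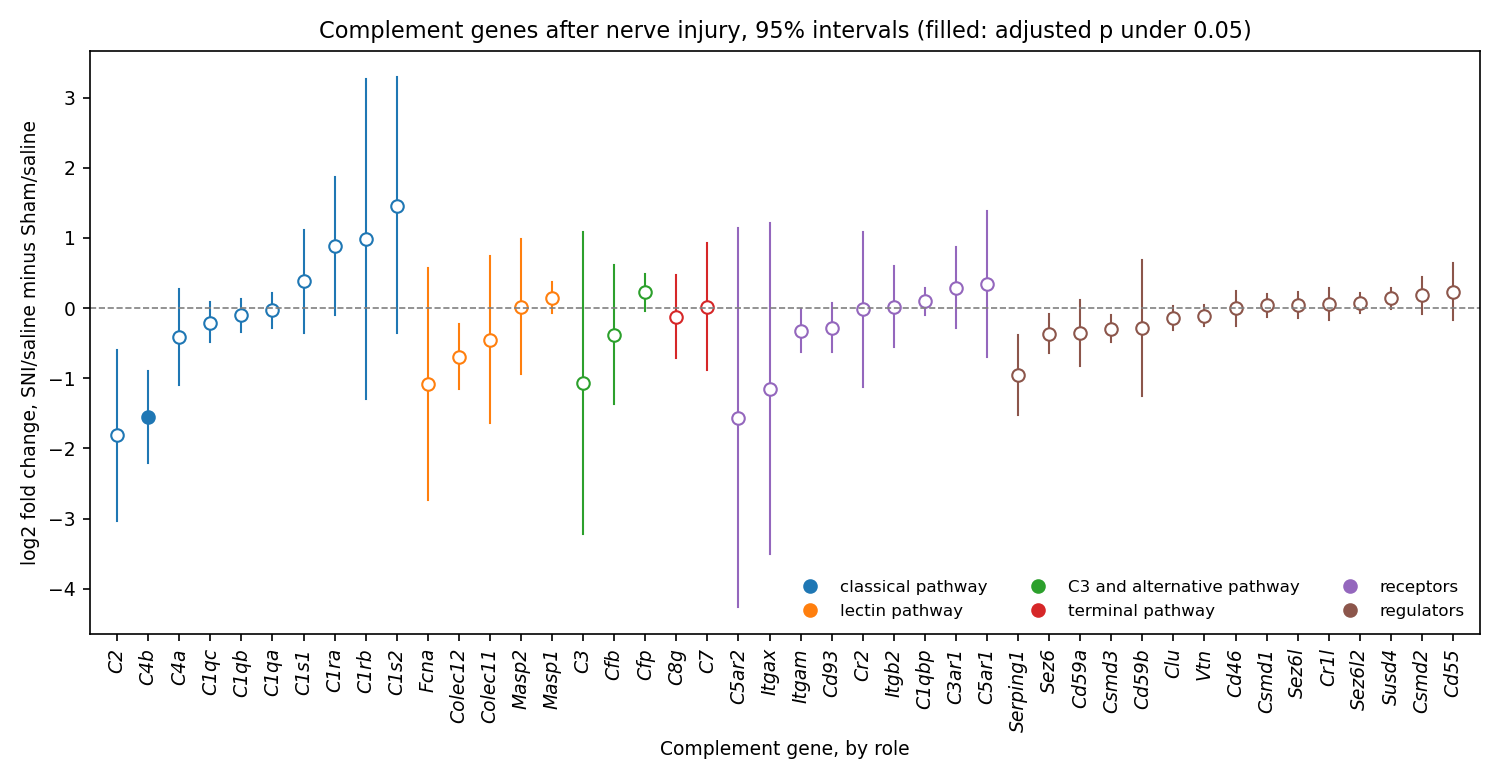
Log2 fold change between injured saline and sham mice (vertical axis) of tested complement list genes, with 95% intervals from edgeR as bars, colours for roles and a filled point where the adjusted p was under 0.05; Hc is left out because it is listed at 0 in all injured saline libraries. C4b, at -1.55, is the only filled point, and values of both signs occur.

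Markers of some cell types, but not all, moved beside the low C4b and Serping1 values. The summed level of 10 astrocyte markers was 3894.1 to 4352.4 CPM in sham, 3639.3 to 3861.7 in injured saline and 3646.3 to 4084.2 in R-HNK mice. Of these, Slc4a4, a bicarbonate transporter, passed as lower between injured saline and sham mice (-0.57 ± 0.11, adjusted p = 0.0307). Without overlap, 5 of 10 were lower and 1 was higher, Gjb6 (0.19 ± 0.08, edgeR adjusted p = 0.257), against 10.9% of all genes in each direction. Gfap, the astrocyte filament protein, gave -0.98 ± 0.36 (adjusted p = 0.248). It is also 1 of 16 reactive astrocyte markers, whose median log2 fold change was 0.0. Of those 16, 4 had an unadjusted p under 0.05 (16.6% of all genes), 2 lower and 2 higher. For 10 markers of meningeal and perivascular fibroblasts the sum was 99.5 to 123.9, 70.1 to 75.7 and 78.9 to 103.7 CPM in the same groups. Pdgfra was its largest part, at 44.0, 53.7 and 55.9 CPM in sham and 42.4, 41.3 and 41.0 in injured saline mice. Of the 10, 3 (Col1a1, Igf2 and Fmod) passed as lower between injured saline and sham mice, against 0.556% of all genes. For 7 border macrophage markers, which were near 0, the sum was 4.13 to 5.53, 1.77 to 2.45 and 3.45 to 3.9 CPM. For 7 neuroblast markers it was 140.4 to 174.4, 75.7 to 80.9 and at least 118.9 CPM. Of the 7, 6 passed as lower between injured saline and sham mice, against 0.556% of all genes. For 8 choroid plexus and ependyma markers the sum was 8.63 to 21.8, 6.33 to 8.02 and 7.44 to 12.2 CPM. Of these 8, Hydin, a gene of motile cilia, passed as lower (-1.65 ± 0.35, edgeR adjusted p = 0.0458). In each of these 5 sums the injured saline libraries lay below all sham libraries, as C4b and Serping1 did. On a score that weights the genes of a list equally, the fibroblast markers overlapped, at -0.207 to 0.65 in sham and -0.744 to -0.154 in injured saline mice. The 7 excitatory neuron markers went the other way, at 4723.2 to 5758.1, 5416.4 to 6016.8 and 5266.1 to 5352.0 CPM. Their equally weighted score was -0.377 to 0.103 in sham and 0.176 to 0.24 in injured saline mice, and Neurod6 passed as higher (0.70 ± 0.11, adjusted p = 0.00901). Beside the higher C4b and Serping1 values of R-HNK against injured saline mice, 7 of 7 neuroblast markers were higher without overlap, against 7.15% of all genes. Of these 7, 3 passed (Igfbpl1, Sp9 and Dlx2), where 0.0368% of all genes passed as higher. The 7 blood markers summed to 352.7 to 538.6 CPM in sham, 282.2 to 399.7 in injured saline and 542.6 to 720.5 in R-HNK mice. Of these, 5 of 7 were higher without overlap in R-HNK than in injured saline mice, against 7.15% of all genes, and none of them passed. The part of these markers in the C4b and Serping1 results was not tested. The 8 oligodendrocyte markers varied widely within groups, at 3370.1, 6391.3 and 7070.6 CPM in sham, 3375.2, 4366.6 and 4787.7 in injured saline and 5076.0, 3515.6 and 6837.4 in R-HNK mice. Their replicates ranked in the same order as those of C4b in sham and R-HNK mice, but not in injured saline mice. A link was not tested. With the striatal marker score as a covariate the C4b value between injured saline and sham mice was -1.05 (adjusted p = 0.168). For the C1q chains, the 13 microglia markers summed to 384.5 to 477.1 CPM in sham, 365.6 to 396.8 in injured saline and 391.9 to 446.9 in R-HNK mice, groups that overlapped. On the equally weighted score injured saline mice, at -0.189 to -0.0509, overlapped sham mice, at -0.0851 to 0.243. They lay below R-HNK mice, at -0.0149 to 0.0987. Without overlap, 2 of 13 were lower between injured saline and sham mice, against 10.9% of all genes. Between R-HNK and injured saline mice 3 of 13 were higher, against 7.15%. Of the 13, Sall1, a microglial transcription factor, passed as lower, at 19.3 ± 1.53 CPM in injured saline and 33.4 ± 3.61 CPM in sham mice (-0.79 ± 0.11, adjusted p = 0.00426).

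**Figure D5:**
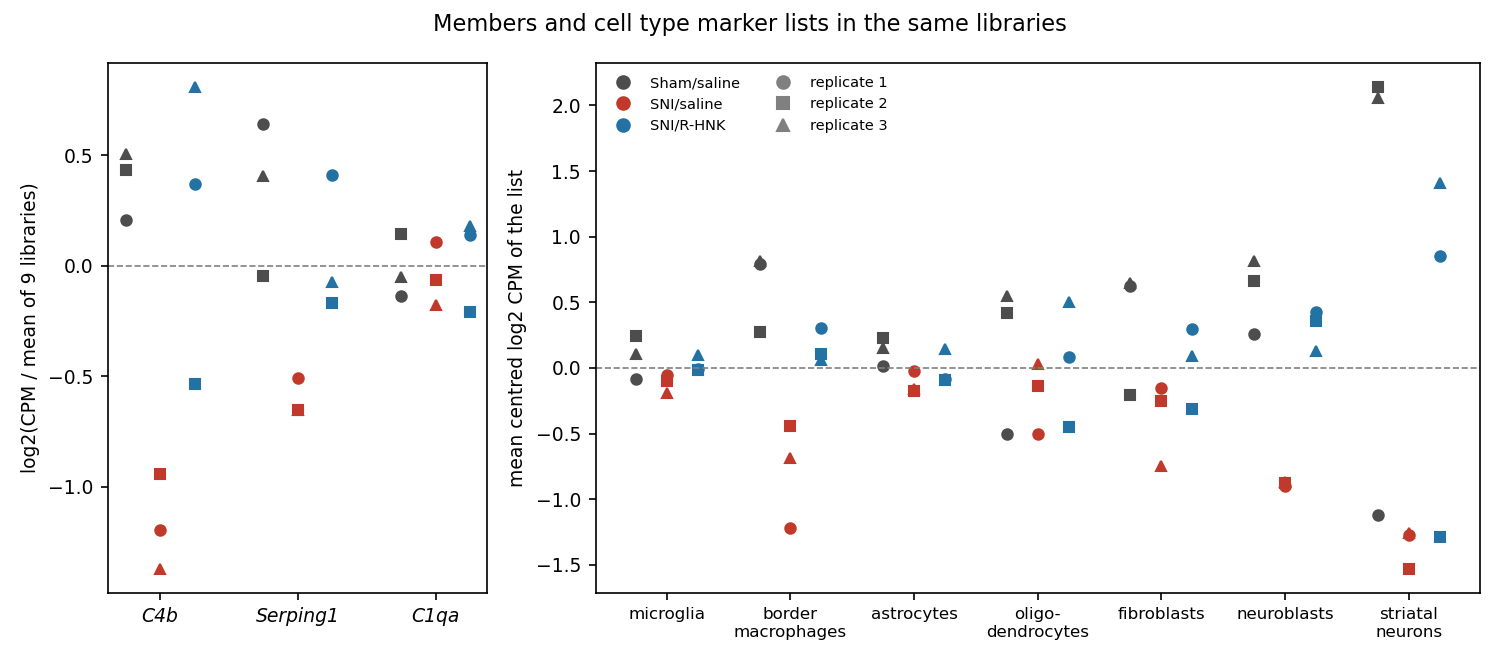
Left, log2 of CPM over the mean of the 9 libraries for C4b, Serping1 and C1qa; right, a score for each of 7 marker lists, the mean over its genes of log2 CPM centred on the 9 libraries. Points are mice, colours are groups and shapes are replicate numbers. The striatal score is raised in 4 libraries, 2 from sham and 2 from R-HNK mice, and the neuroblast scores of the injured saline mice, -0.902 to -0.868, lie below all others.

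The genes whose level followed each member most closely over the 9 libraries were listed by Pearson's r of log2 CPM, as a description over 12773 genes of which the highest r is high by selection, and over libraries that share groups and tissue content. For C4b the nearest were Fam214a (r = 0.98), Pigv (0.962) and Myt1 (0.957), a transcription factor of the oligodendrocyte lineage. Fam214a measured 42.1, 47.7 and 51.5 CPM in sham, 32.3, 33.5 and 31.9 in injured saline and 45.5, 38.4 and 49.9 in R-HNK mice. Like C4b, it was lowest in the injured saline mice and lower in R-HNK replicate 2 than in the other R-HNK libraries. For Serping1 the nearest were Colgalt1 (0.96), Ep400 (0.958) and Igf2 (0.948), a growth factor of fibroblasts and the meninges. The nearest to C1qa were Nudt1 (0.955), Gnb2 (0.941) and Zfyve21 (0.929), to C1qc Hnrnpm (0.983), Brat1 (0.98) and Ttf1 (0.971), and to C3, whose values rest on few counts, Slf2 (0.941), Ptchd4 (0.913) and Gpr157 (0.895). For C1qb they were M1 (0.954), written so in the table, Dnal4 (0.951) and Zdhhc14 (0.941). The members themselves were left out of this search, so it cannot show whether the C1q chains followed each other.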

How the data were processed

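RNA from 9 prelimbic cortex samples, 1 mouse each and 3 per group, was sequenced on an Illumina NovaSeq instrument, per the labels. The submitters' processing notes name HISAT2 2.0.5, featureCounts 1.5.0-p3 and mm10. The deposited table holds expected counts (estimated counts per gene, whole numbers, not normalized by the authors). Its name gives StringTie, so the counting tool is uncertain, and strand use and the handling of shared reads are not given in the sources used here. Libraries summed to 53624337 to 73586375 counts.

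The test was run with edgeR 4.0.16 under R 4.3.3: filterByExpr by group (minimum count 10, leaving 21765 genes), TMM scaling (factors 0.979 to 1.03) and the robust quasi-likelihood fit over all 9 libraries. The test is two-sided with Benjamini-Hochberg adjustment over all genes. SEs were worked back from the test statistic. An exact permutation test of 3 against 3 mice cannot go below p = 0.1. Alternatives were DESeq2 1.42.0, limma-voom (limma 3.58.1), other scalings, no filter, C4a and C4b summed, the compared groups alone, a replicate block, a covariate (the striatal marker score), and libraries left out. The fit was checked on simulated counts with known changes, set in genes above 1 CPM. Over the 3 comparisons 5.37% to 7.01% of the calls were false. Of 1.5-fold changes 44.8% to 46.3% were recovered, of 2-fold changes 70.1% to 79.1% and of 4-fold changes 90.9% to 95.5%.

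The members, lists, naming rule and alternatives were chosen with earlier results of these data known. Named were the 6 members and C4a, complement list genes that passed or had the highest mean CPM in their role (up to 4), and up to 2 marker genes per list. Also named were the 3 genes most like each member, searched among genes other than the members whose mean log2 CPM was 1 or more. Genes given because of a count of calls, a lack of overlap or an unadjusted p (Sall1, Col1a1, Igf2, Fmod, Csmd3, Slc4a4, Gfap, Gjb6, Hydin, Neurod6, Igfbpl1, Sp9, Dlx2) were named after their values were seen. An item of the complement list is not reported here.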

Additional observations from a re-analysis of the deposited data

How the results depend on the processing

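Between injured saline and sham mice 233 genes passed, and 1131 with DESeq2, 1135 with limma-voom, 370 without a filter, 78 with the striatal covariate, 86 without the 4 libraries raised in striatal markers, and 60 to 1170 when 1 library was left out. The extremes were 1170 when sham replicate 1 was absent and 60 when injured saline replicate 3 was. Of the 6 members 1 passed, and 2 with DESeq2, 0 without a filter, 0 with the replicate block, 0 with the striatal covariate and 0 to 1 with 1 library left out. Of the complement list 1 gene passed, and 4 with DESeq2, 4 with limma-voom, 0 with the block, 0 with the covariate and 0 to 4 with 1 library left out. C4b missed the threshold without a filter (adjusted p = 0.0966). Serping1 passed with DESeq2 alone (-0.96, adjusted p = 0.0322), and its adjusted p over all settings was 0.0322 to 0.337.

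Between R-HNK and injured saline mice 26 genes passed, and 140 with DESeq2, 49 with limma-voom, 53 with the compared groups alone, 16 with the block and 7 to 56 with 1 library left out. Members and complement genes passing went from 0 to 1 with DESeq2, and ranged from 0 to 1 with 1 library left out. C4b was the member, with adjusted p from 3.32e-06 to 0.839 over its settings. Between R-HNK and sham mice 1 gene passed, and 10 with DESeq2, 0 with limma-voom, 2 with the block, 25 without the 4 libraries and 1 to 11 with 1 library left out.

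Nothing in the labels says whether replicate numbers pair the mice, and the values showed no sign of it, which does not exclude pairing. Correlations of deviations between libraries of the same number were -0.104 to 0.092, and 3 of 9 libraries correlated best with their own number. With the number as a block C4b gave -1.53 (adjusted p = 0.0878) between injured saline and sham mice, and 162 genes passed.

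Some differences that did not pass changed sign, and none of these passed under any setting. For injured saline against sham mice, C1qa was 0.192 and C1qb 0.1 with the covariate, and 0.103 and 0.111 without the 4 libraries. C1qa ranged from -0.091 to 0.059 with 1 library left out. For R-HNK against injured saline mice, C1qa was -0.077 and C1qb -0.081 with the covariate, C1qa -0.175, C1qb -0.046 and C4a -0.32 without the 4 libraries, and C3 -1.841 with limma-voom. With 1 library left out C1qb ranged from -0.001 to 0.166 and C3 from -0.086 to 1.249. For R-HNK against sham mice, C1qb was 0.019 and C4b 0.005 with the covariate, C1qa -0.071, C1qb 0.064, C1qc -0.139 and C3 0.612 without the 4 libraries, and C4a 0.025 with limma-voom. With 1 library left out the ranges were -0.009 to 0.174 for C1qa, -0.13 to 0.016 for C1qb, -0.052 to 0.177 for C1qc, -1.154 to 0.182 for C3, -0.255 to 0.191 for C4a and -0.395 to 0.222 for C4b. The cause was not tested. Depth limits C3 most, with 0 to 33 counts per library. Fits that leave 1 library in a group assume that it varies like the others.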
